A study of Mus musculus with 6 samples.

Results

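The genes described here are 10 mouse genes that bind, sense or move zinc: the metallothioneins Mt1 and Mt2, the zinc-sensing transcription factor Mtf1, the zinc exporters Slc30a1 and Slc30a4, and the zinc importers Slc39a1, Slc39a6, Slc39a8, Slc39a10 and Slc39a14. They were chosen by symbol, and all 10 were found among the 54886 genes listed in the series. All 10 were also among the 11884 genes tested, those with a mean of at least 1 FPKM (fragments per kilobase of exon, scaled to sequencing depth) over all libraries. The cells were GC-2spd, a line derived from mouse spermatocytes (BALB/c strain background). RNA of 3 control samples was set against RNA of 3 samples exposed to PM2.5, fine particulate matter, at 100 μg/mL for 48 h. The paper's methods describe control cells as given normal medium and PBS. They describe the particles as a purchased NIST reference material, collected in a US urban area and suspended in PBS. Nothing in the labels says that the samples of a group were separate cultures, so p-values measure only the spread between these samples. GC-2spd is 1 established line grown without the other cells of the testis, which limits it as a model.

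Metallothioneins are small, cysteine-rich proteins that bind zinc, copper and cadmium. When free zinc or cadmium rises in a cell, the transcription factor MTF-1, the product of Mtf1, binds metal response elements in promoters and raises transcription of metallothionein genes and of Slc30a1. The ZnT (SLC30) proteins carry zinc out of the cytosol, and the ZIP (SLC39) proteins carry it in, so the question put to these genes was how they responded to particles that carry metals.

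Before the results, 1 control library needs to be set apart. Control replicate 2 correlated with the other controls at r = 0.742 and 0.745 over all genes tested (log2(FPKM + 1)), against 0.992 between control replicates 1 and 3. Of its reads, 14.5% came from mitochondrial genes, against 1.65% to 1.95% of those of the other 5 libraries. In all, 41.1% of the genes tested, and 6 of the 10 zinc genes, differed by over 1 on the log2 scale between it and the mean of the other controls. Each comparison is therefore given with it (3 against 3 libraries) and without it (2 against 3). Control replicates 1 and 3 were close to each other, as were PM2.5 replicates 1 and 2: the mean chi-square per gene was 3.33 and 4.50, where sampling noise alone gives about 1, and 35.4 or more for every other pair of libraries. Depth ranged from 16209346 to 18003196 reads per library, recovered from the FPKM values.

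The labelled cell type could not be recognised by its markers. Of 10 genes that mark meiotic and other germ cells, none reached the level for testing, 4 were at 0 in every library, and 8 never exceeded 3 reads. Sycp3, a component of the synaptonemal complex, had 42 reads in control replicate 2 and at most 10 elsewhere. Of 6 fibroblast genes, 5 were tested, and the collagen gene Col1a1 stood between 193 FPKM, in PM2.5 replicate 3, and 452 FPKM. The collagen genes Col1a2 and Col3a1 were lower in every PM2.5 library than in every control: Col1a2 had 199 to 202 FPKM in the controls and 115 to 135 after exposure, and Col3a1 13.6 to 17.8 and 7.52 to 9.61. Their log2 differences were -0.66 and -0.70 with all libraries (limma, Benjamini-Hochberg adjusted p = 0.875 for both) and -0.67 and -0.59 without control replicate 2 (0.0802 and 0.144). Fn1, which encodes fibronectin, differed by 0.071 with all libraries and by -0.67 without control replicate 2 (limma, Benjamini-Hochberg adjusted p = 0.972 and 0.0859). In the same fits Col1a1 differed by -0.37 and -0.33 (limma, Benjamini-Hochberg adjusted p = 0.875 and 0.721). Pdgfrb was slightly above 0 in both, at 0.040 and 0.016 (0.952 and 0.972). Thy1 was not tested and had 1 read, in control replicate 2. The summed level of the fibroblast list ranged from 712 to 829 FPKM in the controls. In PM2.5 replicates 1, 2 and 3 it was 708, 706 and 425 FPKM. None of its genes passed the test in either limma fit. With and without control replicate 2, 2 and 3 of them had an unadjusted p under 0.05, against 3.8% and 15.9% of all genes. In bulk RNA, a shift in the share of cells and a shift in RNA per cell cannot be told apart. Of 7 Sertoli genes, 1 was tested (Gata4, 11.1 to 22.3 FPKM), and of 6 Leydig genes, 1 (Star, 1.58 to 2.49 FPKM). Of 5 leukocyte genes, 4 were at 0 throughout, and Cd68 had 252 reads in control replicate 2 against 17 to 41 elsewhere. The part of these markers in the results below was not tested.

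Mt1 and Mt2 showed the largest differences of the 10 genes. Without control replicate 2, the ratio of the mean FPKM of the PM2.5 libraries to that of the controls was 5.56 for Mt1 and 8.68 for Mt2, and Mt1 alone of the 10 genes passed the test. With all 6 libraries the ratios were 2.46 and 11.4, and none of the 10 genes passed.

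Mt1 (ENSMUSG00000031765; GRCm38, chromosome 8, 94179082 to 94180327, plus strand) had 34.7 FPKM in control replicate 1, 177 in control replicate 2 and 39.2 in control replicate 3. In the PM2.5 libraries it had 204, 196 and 218 FPKM. These values rest on 803, 2854 and 881 reads in the controls and on 4534, 4327 and 4902 reads after exposure. Every PM2.5 library lay above every control, but control replicate 2 lay far nearer to the PM2.5 libraries than to its own group, at 4.78 times the mean of the other controls. The control mean was 83.5 ± 80.6 FPKM (SD, n = 3) with that library and 37.0 ± 3.17 FPKM (n = 2) without it, against 206 ± 11.1 FPKM (n = 3) after exposure. On the log2(FPKM + 1) scale the difference was 1.70 (SE 0.63) with all 6 libraries (limma, Benjamini-Hochberg adjusted p = 0.875). Without control replicate 2 it was 2.45 (SE 0.11, 95% interval 2.18 to 2.72; limma, Benjamini-Hochberg adjusted p = 0.00757). That p-value was rank 2 and the difference rank 4 among higher genes, of 11884. The call was lost when 1 more library was left out, other than PM2.5 replicate 3. The adjusted p (limma, Benjamini-Hochberg) was then 0.176 without control replicate 1, 0.122 without control replicate 3, 0.0601 without PM2.5 replicate 1 and 0.101 without PM2.5 replicate 2. It was 0.000145 without PM2.5 replicate 3, and the difference stayed between 2.36 and 2.53 in all of these fits.

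Mt2 (ENSMUSG00000031762; chromosome 8, 94172664 to 94173568, plus strand) lies beside Mt1 and had far lower FPKM. It had 1.01, 0.262 and 0.849 FPKM in control replicates 1, 2 and 3, and 5.997, 6.61 and 11.6 FPKM in PM2.5 replicates 1, 2 and 3. The groups did not overlap, and here control replicate 2 was the lowest library. Mt2 reached the mean of 1 FPKM needed for testing only through the PM2.5 libraries. Its mean was 0.706 FPKM in the controls and 8.06 FPKM after exposure. The counts behind the control values were small, at 11, 2 and 9 reads, against 63, 69 and 123 reads after exposure. A gene on the opposite strand, Gm45774, overlaps Mt2, while none overlaps Mt1. Whether Mt2 lost reads to that gene or gained reads from it was not tested. The 2 reads of control replicate 2 are under the 3 reads taken as the detection floor, which in that library is 0.393 FPKM. The log2 difference was 2.39 (SE 0.31) with all 6 libraries (limma, Benjamini-Hochberg adjusted p = 0.121) and 2.18 (SE 0.28, 95% interval 1.47 to 2.89) without control replicate 2 (limma, Benjamini-Hochberg adjusted p = 0.0507). Mt2 thus missed the threshold in both fits. It passed it without control replicate 2 when the pseudocount was 0.1 (limma, Benjamini-Hochberg adjusted p = 0.0380) or 0.01 (0.0392), and when FPKM were rescaled to total reads (0.0471). It did not pass it there with quantile normalization (0.0542), with voom on recovered reads (0.0930) or without a filter (0.113). With at least 10 reads required in every library, Mt2 was not tested.

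The proportion of the neighbouring genes stood apart in control replicate 2 and, less so, in PM2.5 replicate 3. The ratio of Mt1 to Mt2 FPKM was 34.4 in control replicate 1 and 46.2 in control replicate 3, and 34.0, 29.6 and 18.8 in the PM2.5 libraries. Exact 95% intervals from counting error were 19.1 to 69.3 and 24.2 to 101 in these controls. In PM2.5 replicates 1, 2 and 3 they were 26.5 to 44.3, 23.3 to 38.1 and 15.7 to 22.7. The interval of PM2.5 replicate 3 overlapped that of control replicate 1 only, and the other intervals of these libraries overlapped each other. In control replicate 2, where Mt2 had 2 reads, it was 673, with an exact 95% interval of 186 to 5563 that covers counting error only. Mt1 ranked between 1382 and 1595 among all genes by FPKM in control replicates 1 and 3, while its rank was 372 in control replicate 2 and 135 to 171 after exposure. Of the summed FPKM of the 10 genes, Mt1 made up 16.01% and 18.01% in control replicates 1 and 3, 69.6% in control replicate 2, and 51.8% to 53.5% after exposure. The absolute ratio depends on gene length: the exons of Mt1 cover 1246 bases together, while its annotated transcripts have 549, 633 and 1085 bases, and dividing by the shortest would raise its FPKM 2.27-fold in every library. Of the other metallothioneins, Mt4 had no read in any library, and Mt3 had 1, 7 and 4 reads in the controls and 3, 2 and 18 after exposure.

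**Figure D1:**
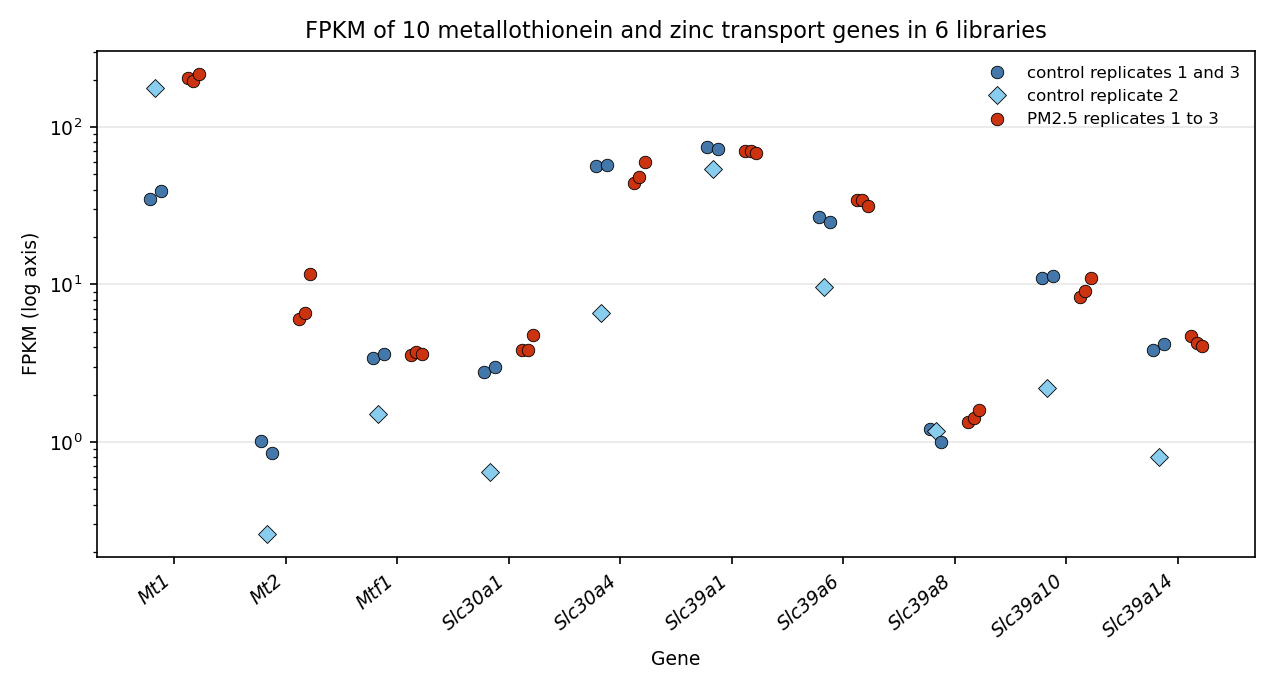
FPKM of the 10 genes on a log axis, 1 point per library, with control replicate 2 drawn as a diamond. For Mt1 that diamond (177 FPKM) sits near the PM2.5 libraries (196 to 218), while for 8 of the other 9 genes (all but Slc39a8) it is the lowest of the 6 points.

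The promoter windows of the 4 genes with more than 1 metal response element match are shown, since Mt1, Mt2 and Slc30a1 are textbook MTF-1 targets. They run from 250 bases before to 50 bases after the transcript start in RefSeq (GRCm38.p6), 5′ to 3′ on the gene's strand, with the metal response element core in capitals. The core was searched as TGCACNC or TGCGCNC on both strands, so a match on the other strand reads as GNGTGCA or GNGCGCA. The windows are chr8:94178839-94179138 (plus strand) for Mt1, chr8:94172368-94172667 (plus) for Mt2, chr1:191906531-191906830 (plus) for Slc30a1 and chr2:122702614-122702913 (minus) for Slc30a4.
Mt1: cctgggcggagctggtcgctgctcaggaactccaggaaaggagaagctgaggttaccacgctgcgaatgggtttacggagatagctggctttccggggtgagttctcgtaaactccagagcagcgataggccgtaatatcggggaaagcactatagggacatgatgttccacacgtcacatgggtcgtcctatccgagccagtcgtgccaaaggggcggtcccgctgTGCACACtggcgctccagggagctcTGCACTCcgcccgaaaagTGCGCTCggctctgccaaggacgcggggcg
Mt2: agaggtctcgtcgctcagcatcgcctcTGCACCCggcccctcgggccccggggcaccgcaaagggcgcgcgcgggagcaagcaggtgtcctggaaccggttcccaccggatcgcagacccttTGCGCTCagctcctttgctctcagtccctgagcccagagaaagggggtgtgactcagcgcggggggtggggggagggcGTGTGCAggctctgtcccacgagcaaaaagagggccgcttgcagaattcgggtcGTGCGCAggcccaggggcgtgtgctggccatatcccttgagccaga
Slc30a1: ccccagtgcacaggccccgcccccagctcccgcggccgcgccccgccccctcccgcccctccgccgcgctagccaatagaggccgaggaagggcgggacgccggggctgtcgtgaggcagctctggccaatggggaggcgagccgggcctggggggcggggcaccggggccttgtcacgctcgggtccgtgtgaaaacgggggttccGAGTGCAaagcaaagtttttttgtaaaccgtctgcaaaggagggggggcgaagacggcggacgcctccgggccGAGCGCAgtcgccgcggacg
Slc30a4: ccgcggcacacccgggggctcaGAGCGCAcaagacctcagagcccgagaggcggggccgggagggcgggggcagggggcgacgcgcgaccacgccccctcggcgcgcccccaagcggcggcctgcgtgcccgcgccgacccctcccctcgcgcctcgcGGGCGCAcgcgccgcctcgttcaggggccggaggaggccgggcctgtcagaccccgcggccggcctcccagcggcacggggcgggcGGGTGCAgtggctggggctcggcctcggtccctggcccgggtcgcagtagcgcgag

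Mt1 held 3 matches, Mt2 4, Slc30a1 2 and Slc30a4 3. Slc39a8 held 1, in the second of its windows, and Mtf1, Slc39a1 and Slc39a10 held none. Slc39a6 and Slc39a14 had no window in the table. Of all 32851 windows of this length, 25.7% held at least 1 match, 7.11% at least 2, 1.97% at least 3 and 0.517% at least 4. The 3 matches of Mt1 lie on the gene's strand between 23 bases before and 21 bases after its RefSeq start (first base of each match). Those of Mt2 begin 223, 128 and 50 bases before and 5 bases after its RefSeq start. That start, 94172618, lies before the first base given above for Mt2 (94172664). For Slc39a10, 1 window has its start at 46925776, outside the gene (46807544 to 46892852). Distances and counts hold for these windows and RefSeq starts only, and which starts these cells used was not tested. Sequence outside the windows was not searched, so a window without a match does not mean a promoter without one. The antioxidant response element core, TGACNNNGC, matched once each in Mt2, Slc30a1, Slc39a1 and Slc39a8 (12.4% of all windows). The dioxin response element core, GCGTG, bound by the aryl hydrocarbon receptor, matched in Mt1, Mt2, Slc30a1, Slc30a4 and Slc39a8 (32.4% of all windows). In Mt2, the GCGTG that begins 52 bases before the start overlaps a metal response element match. Within these windows Slc30a4 held as many metal response element matches as Mt1. Its mean FPKM after exposure was 0.896 times that of control replicates 1 and 3. Whether the matches bear on the level of Mt1 or Slc30a4 was not tested. A match of letters is a description of the window, not of binding.

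**Figure D2:**
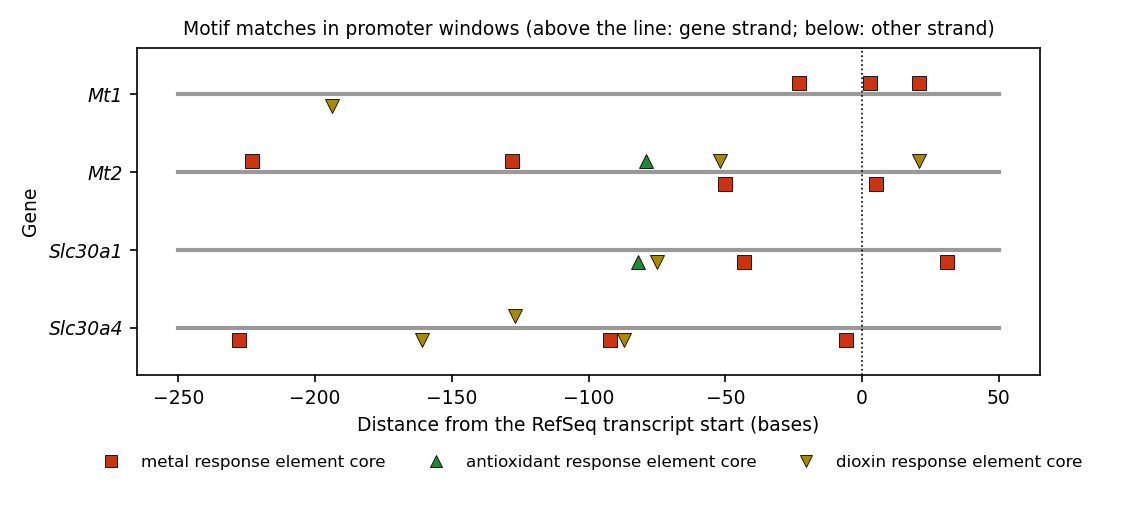
Matches of 3 motifs in the promoter windows of Mt1, Mt2, Slc30a1 and Slc30a4, by distance from the RefSeq transcript start in bases; symbols above a line are on the gene's strand and those below it on the other strand. Mt1 has 3 metal response element matches close to its RefSeq start, and Slc30a4 has 3 spread over the window.

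Mtf1 itself did not pass the test. Mtf1 (ENSMUSG00000028890; chromosome 4, 124802104 to 124849800, plus strand) had 3.41, 1.497 and 3.61 FPKM in control replicates 1, 2 and 3, and 3.56, 3.70 and 3.61 FPKM in the PM2.5 libraries. Control replicate 2 was low, and the other 5 libraries lay between 3.41 and 3.70 FPKM. Its log2 difference was 0.32 (SE 0.27) with all libraries and 0.036 without control replicate 2, with a 95% interval of -0.18 to 0.26 (limma, Benjamini-Hochberg adjusted p = 0.864).

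The exporters had log2 differences of opposite sign once control replicate 2 was left out, and neither passed the test. Slc30a1 (ENSMUSG00000037434; chromosome 1, 191906767 to 191913247, plus strand) encodes ZnT1, which moves zinc across the plasma membrane out of the cell. It had 2.79, 0.647 and 3.004 FPKM in control replicates 1, 2 and 3, and 3.86, 3.85 and 4.78 FPKM in the PM2.5 libraries. Every PM2.5 library was above every control, also without control replicate 2, where the ratio of the means was 1.44. This made a log2 difference of 0.82 (SE 0.37) with all libraries (limma, Benjamini-Hochberg adjusted p = 0.875) and 0.40 (SE 0.12, 95% interval 0.10 to 0.71) without control replicate 2 (limma, Benjamini-Hochberg adjusted p = 0.226).

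Slc30a4 (ENSMUSG00000005802; chromosome 2, 122681233 to 122702663, minus strand) encodes ZnT4, which loads zinc into intracellular vesicles. It had 56.8, 6.61 and 57.0 FPKM in control replicates 1, 2 and 3, and 44.4, 48.1 and 60.4 FPKM after exposure. The mean of the other controls was 8.60 times control replicate 2. PM2.5 replicate 3 was above all controls, while PM2.5 replicates 1 and 2 were below control replicates 1 and 3. The log2 difference was 0.81 (SE 0.82) with all libraries and -0.17 (SE 0.15, 95% interval -0.56 to 0.22) without control replicate 2 (limma, Benjamini-Hochberg adjusted p = 0.626), so its direction turned with that library.

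Among the 5 importers, none passed the test in either limma fit, and 1 (Slc39a6) had an unadjusted p under 0.05 without control replicate 2. Slc39a6 (ENSMUSG00000024270), which encodes ZIP6, a plasma membrane importer, had 26.97, 9.71 and 24.97 FPKM in control replicates 1, 2 and 3 and 34.3, 34.4 and 31.7 FPKM in the PM2.5 libraries. The groups did not overlap. They differed by 0.80 (SE 0.40) on the log2 scale with all libraries and by 0.35 (SE 0.093, 95% interval 0.12 to 0.59) without control replicate 2 (limma, Benjamini-Hochberg adjusted p = 0.187).

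Slc39a8 (ENSMUSG00000053897; chromosome 3, 135825279 to 135888572, plus strand) encodes ZIP8, which carries zinc, manganese and cadmium. It was the only one of the 10 genes with a control replicate 2 value between those of the other controls, at 1.21, 1.18 and 1.01 FPKM in control replicates 1, 2 and 3. The PM2.5 libraries had 1.34, 1.41 and 1.60 FPKM, all above the controls. On the log2 scale they differed by 0.20 (SE 0.18) with all libraries and by 0.22 (SE 0.11) without control replicate 2 (limma, Benjamini-Hochberg adjusted p = 0.427).

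Slc39a10 (ENSMUSG00000025986; chromosome 1, 46807544 to 46892852, minus strand) encodes ZIP10, a plasma membrane importer whose gene MTF-1 is known to repress. It had 11.1, 2.19 and 11.3 FPKM in control replicates 1, 2 and 3, and 8.29, 9.15 and 10.9 FPKM in the PM2.5 libraries. Without control replicate 2 every PM2.5 library lay below every control, by a log2 difference of -0.23 (SE 0.13, 95% interval -0.57 to 0.11; limma, Benjamini-Hochberg adjusted p = 0.466). With all libraries the difference was 0.42 (SE 0.55).

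Slc39a1 (ENSMUSG00000052310; chromosome 3, 90248172 to 90253612, plus strand) encodes ZIP1, a broadly expressed plasma membrane importer, and had the highest level of the importers. It had 75.1, 54.3 and 72.6 FPKM in control replicates 1, 2 and 3 and 70.3, 70.6 and 68.7 FPKM after exposure. The PM2.5 libraries lay just below control replicates 1 and 3. Its log2 difference was 0.066 (SE 0.22) with all libraries and -0.079 (SE 0.083, 95% interval -0.29 to 0.13) without control replicate 2 (limma, Benjamini-Hochberg adjusted p = 0.678). Of its 31-base words, 27.7% also occur in other genes' transcripts, so reads could have been divided, and its level is uncertain for that share. For the other 9 genes that share was between 0% and 1.62%.

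Slc39a14 (ENSMUSG00000022094; chromosome 14, 70303469 to 70351425, minus strand) encodes ZIP14, which carries zinc and also iron and manganese. It had 3.85, 0.804 and 4.17 FPKM in control replicates 1, 2 and 3 and 4.72, 4.27 and 4.08 FPKM after exposure, and the groups overlapped without control replicate 2. Its log2 difference was 0.59 (SE 0.43) with all libraries and 0.096 (SE 0.10) without control replicate 2 (limma, Benjamini-Hochberg adjusted p = 0.676). Genes on the opposite strand overlap Mt2, Mtf1, Slc30a1, Slc30a4, Slc39a6 (Elp2) and Slc39a8. No strand setting of the counting is given in the sources used here, so reads gained from or lost to such partners could not be told apart.

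Ordered by level after exposure, Mt1 (206 ± 11.1 FPKM, SD, n = 3) stood above Slc39a1 (69.9 ± 1.03), Slc30a4 (51.0 ± 8.35) and Slc39a6 (33.5 ± 1.51). Slc39a10 (9.46 ± 1.35) and Mt2 (8.06 ± 3.06) followed and overlapped, as did Slc39a14 (4.36 ± 0.332) and Slc30a1 (4.16 ± 0.534). Mtf1 (3.62 ± 0.0707) and Slc39a8 (1.45 ± 0.130) were lowest. In control replicates 1 and 3, Mt1 came after Slc39a1 and Slc30a4, Mtf1 came before Slc30a1, and Mt2 was last.

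By count, all 10 genes had a log2 difference above 0 with all 6 libraries, against 51.9% of all genes tested. Their median was 0.69, against 0.020 over all genes tested. The counts and medians here include Mt2, which entered the test only through its PM2.5 values. None of the 10 passed the test in limma, where 0.0337% of all genes were called higher and 0.0589% lower. With voom on recovered reads none of the 10 and no other gene was called. At an unadjusted p under 0.05 from limma there were 2 of 10 (Mt1 and Mt2), against 3.8% of all genes. In 5 of 10 (Mt1, Mt2, Slc30a1, Slc39a6 and Slc39a8) every PM2.5 library was above every control, against 8.35% of all genes. Without control replicate 2, 7 of 10 differences were above 0, against 48.0% of all genes. Their median was 0.16, against -0.011 over all genes. Of the 10, 1 was called higher (Mt1) and none lower, where 0.286% of all genes were called higher and 0.707% lower. At an unadjusted p under 0.05 there were 4 (Mt1, Mt2, Slc30a1 and Slc39a6), against 15.9% of all genes. The same 5 genes lay above every control, against 17.7% of all genes, and 2 (Slc39a1 and Slc39a10) lay below every control, against 19.6%. Leaving out PM2.5 replicate 3 as well raised the calls from 1 to 6 of the 10 (Mt1, Mt2, Slc30a1 and Slc39a6 higher, Slc30a4 and Slc39a10 lower), and the calls over all genes from 118 to 5602. That comparison rests on the 2 pairs of libraries that lay close to each other.

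**Figure D3:**
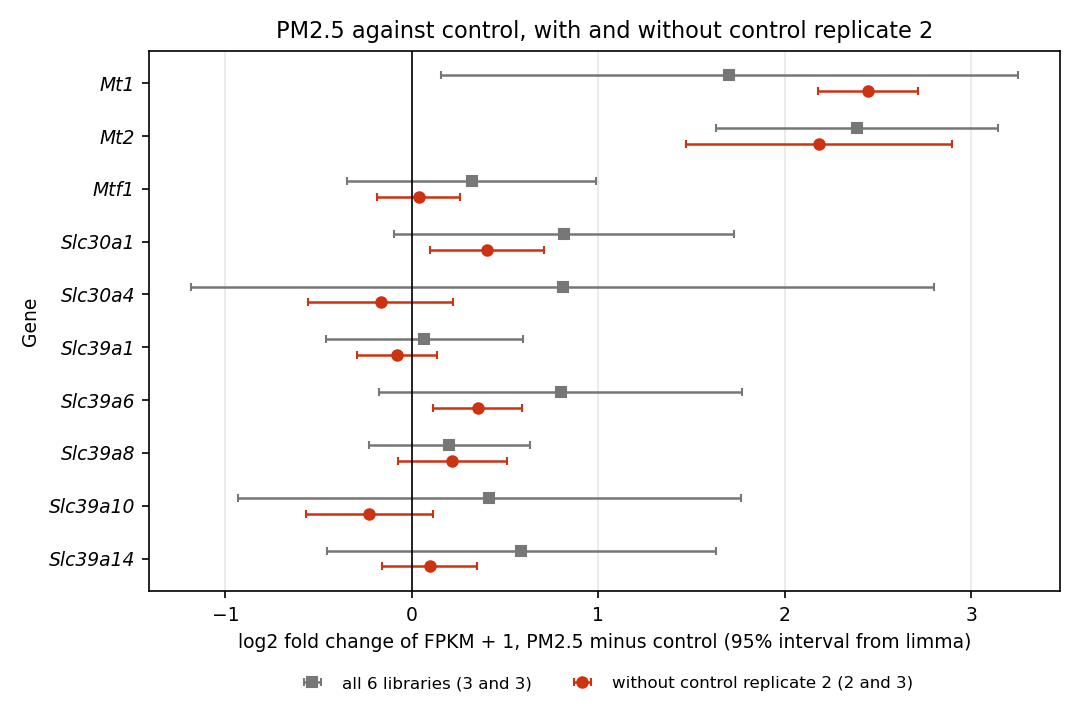
Log2 difference of FPKM + 1 between PM2.5 and control libraries with its 95% interval from limma, with all 6 libraries (grey squares) and without control replicate 2 (red circles). Leaving that library out moved Mt1 from 1.70 to 2.45 and narrowed its interval, and moved Slc30a4 from 0.81 to -0.17.

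The zinc genes moved in different directions in control replicate 2 itself. Relative to the mean of the other controls, Mt1 was higher by 2.23 on the log2 scale, and Slc39a8 differed by 0.048. The other 8 genes were lower, with differences from -0.44 for Slc39a1 to -2.93 for Slc30a4. Over all genes tested that have a length, this difference was lower in genes with longer exons (Spearman's rho = -0.30 across 11740 genes, which are not independent replicates). Its median was 0.52 in genes of up to 1000 bases, 0.59 from 1000 to 2000, 0.19 from 2000 to 4000, -0.21 from 4000 to 8000 and -0.58 above 8000. Mt1 lay above the middle 50% of genes of its length class, and Slc39a6, Slc30a1, Slc30a4, Slc39a10 and Slc39a14 lay below that of theirs.

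**Figure D4:**
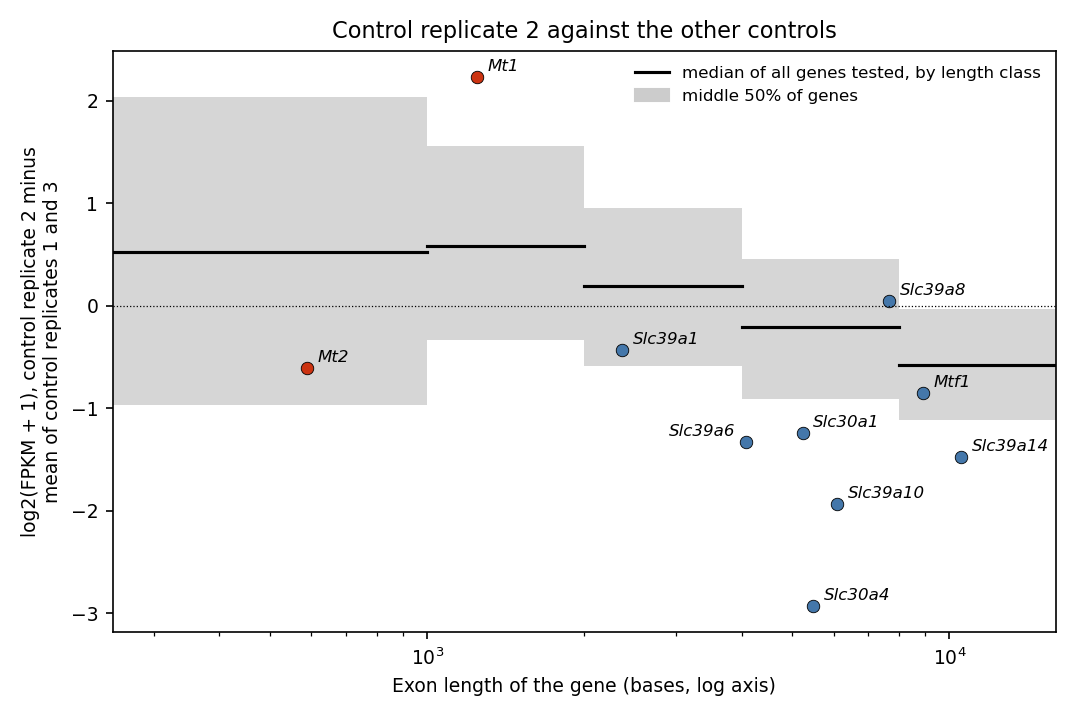
Difference in log2(FPKM + 1) between control replicate 2 and the mean of the other controls, by exon length on a log axis, for the 10 genes (points), with the median (black line) and middle 50% (grey) of all genes tested in 5 length classes. Medians fall from 0.52 in the shortest class to -0.58 in the longest, while Mt1 is at 2.23 and Slc30a4 at -2.93.

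Across the whole ZnT family, 6 of 10 genes were tested and none passed in either limma fit (0 and 1 had an unadjusted p under 0.05 with and without control replicate 2). The median log2 difference was 0.17 with all libraries and -0.15 without control replicate 2, where 1 of 6 (Slc30a1) was above 0. Of the ZIP family, 11 of 14 genes were tested and none passed in either limma fit (0 and 1 at an unadjusted p under 0.05). Over all genes tested, 3.8% and 15.9% had such a p with and without control replicate 2. The median of the ZIP genes was 0.21 with all libraries and 0.10 without control replicate 2. Slc39a5 entered the test through control replicate 2 alone, with 524 reads there and 2 to 14 reads in every other library, so its difference of -1.25 with all libraries (limma, Benjamini-Hochberg adjusted p = 0.875) became 0.10 without it.

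Of MTF-1 and the genes known as its targets, all 11 were tested and 1 (Mt1) passed without control replicate 2, where 9 of 11 differences were above 0 with a median of 0.37. Over all genes tested, 48.0% were above 0 and 0.286% were called higher. At an unadjusted p under 0.05 from limma there were 3 of 11 with all libraries and 6 of 11 without control replicate 2. The shares over all genes, for this list and those below, were 3.8% and 15.9%. Mt1 and Mt2 are among the 3, and Mt1, Mt2 and Slc30a1 among the 6. Mt1, Mt2, Mtf1, Slc30a1 and Slc39a10, described above, make up 5 of the 11. The counts and the median thus include Mt2, which entered the test only through its PM2.5 values. They also include Slc39a10, which MTF-1 is known to repress, so a difference above 0 is not the target direction for every gene. Among the rest of that list, Gclc, which encodes the catalytic subunit of the enzyme that starts glutathione synthesis, had a difference of 0.60 (SE 0.13; limma, Benjamini-Hochberg adjusted p = 0.130). Of the copper transport and chaperone genes, 9 of 12 were tested and none passed in limma (1 and 2 at an unadjusted p under 0.05). The largest differences with all libraries were those of Steap3, a metalloreductase (1.04 with all libraries and 0.83 without control replicate 2), and Commd1, which acts in copper export (-0.92 and -0.071). Of the heat shock genes and heme oxygenase, all 6 were tested and 1 passed without control replicate 2. This was Hmox1, the heme-degrading enzyme, with 25.8, 20.4 and 26.6 FPKM in control replicates 1, 2 and 3 and 127, 118 and 90.0 FPKM in the PM2.5 libraries. Its groups did not overlap, and its log2 difference was 2.15 (SE 0.23; limma, Benjamini-Hochberg adjusted p = 0.0633) with all libraries and 2.03 (SE 0.17; limma, Benjamini-Hochberg adjusted p = 0.0185) without control replicate 2. Hsph1, a chaperone of the same list, differed by 0.83 and 0.11. Glucocorticoids also raise metallothionein transcription, and of 7 glucocorticoid-induced genes 6 were tested and none passed in limma (0 and 3 at an unadjusted p under 0.05). With voom on recovered reads, no gene of the ZnT, ZIP, copper and glucocorticoid lists was called in either fit, and Mt1 and Hmox1 were called without control replicate 2. Klf9, a transcription factor, differed by 1.16 and 0.58, and Per1, a clock gene, by -0.65 and -0.22, with all libraries and without control replicate 2.

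**Figure D5:**
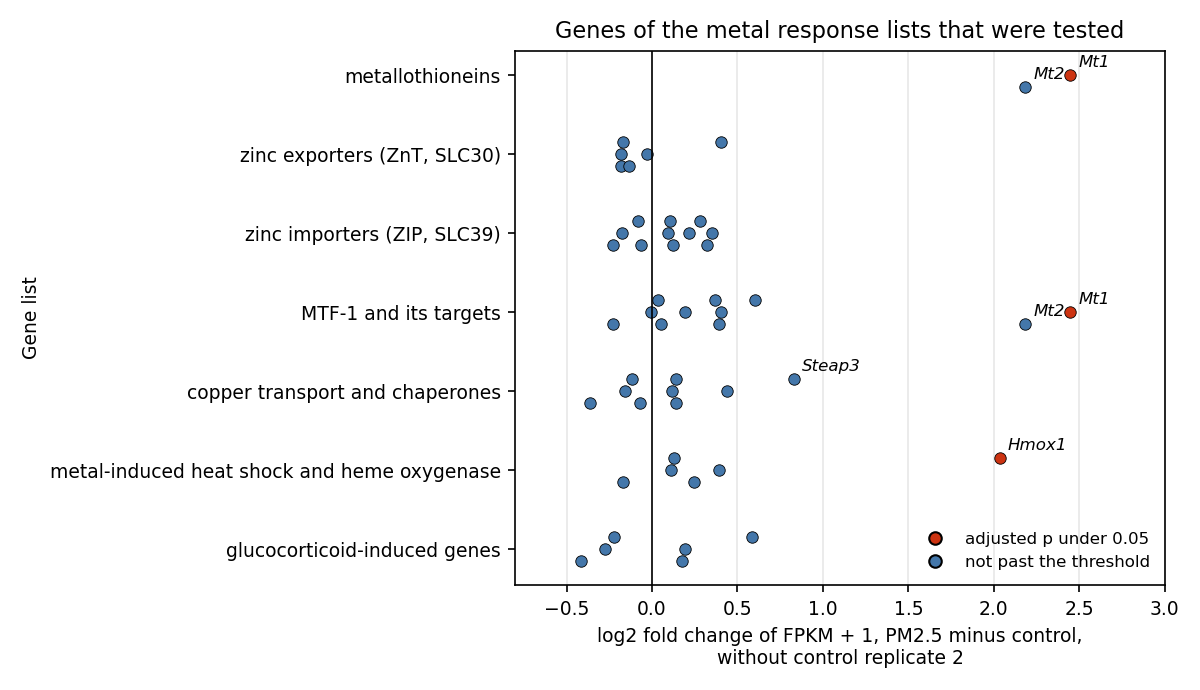
Log2 difference of FPKM + 1 between PM2.5 and control libraries without control replicate 2, 1 point per tested gene, by list; genes on 2 lists appear in both. The called genes (red) are Mt1 at 2.45 and Hmox1 at 2.03, and Mt2 stands at 2.18 without a call.

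The genes whose profile over the 6 libraries was most like the mean standardised profile of Mt1 and Mt2 were Eps8 (r = 0.991), Tyw1 (0.990), Nme6 (0.990), Nqo1 (0.988) and Map1b (0.986). Of 11874 genes compared, 35 had an r above 0.95. That number was 364 without control replicate 2, and the 5 most alike were Gpr137b, Washc5, Eef1g, Zfp764 and Lrp2, none of them among the first 5. Each r rests on 6 or 5 libraries in 2 groups and is a description. Nqo1, a quinone reductase, had 19.6, 24.7 and 18.9 FPKM in control replicates 1, 2 and 3 and 37.5, 42.2 and 53.3 FPKM in the PM2.5 libraries. As for Mt1, control replicate 2 was the highest control for Nqo1, and the groups did not overlap. The same held for the other 4 genes. All 5 were picked for their likeness over these libraries, so the shared pattern follows from the choice. The log2 difference of Nqo1 without control replicate 2 was 1.15 (limma, Benjamini-Hochberg adjusted p = 0.0652). Those of the other 4 genes were 0.62 for Eps8, 0.29 for Tyw1, 0.63 for Nme6 and 0.27 for Map1b.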

How the data were processed

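RNA sequencing of GC-2spd cells gave 6 libraries, 3 control and 3 exposed to PM2.5, grouped and numbered by their labels. The authors deposited FPKM per gene. The submitters' processing notes name HISAT2 2.0.5, featureCounts 1.5.0-p3 and mm9, and the paper's methods name DESeq2. The files hold no coordinates, and positions and exon lengths are those of GENCODE M21 (GRCm38). FPKM multiplied by exon length came in whole steps, which gave reads (98.3% to 98.7% of values under 50 reads were within 0.1 of a whole number) and a detection floor of 3 reads. The implied FPKM denominator was 0.800 times the reads in control replicate 2 and 1.03 to 1.05 times in the others.

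In R 4.3.3, limma 3.58.1 with statmod 1.5.0 (moderated variances with a trend, robust) was fitted to log2(FPKM + 1) for 11884 genes whose mean FPKM was 1 or more, with all libraries and without control replicate 2. Log2 differences on this scale understate changes of low genes. Genes were called at a Benjamini-Hochberg adjusted p under 0.05 over all genes tested. The script was tested on simulated data. The members and lists were chosen with earlier results of these data known. Named genes are the 10 members, from each pathway list the genes called in either fit and the 2 with the largest difference, and the 5 genes most like Mt1 and Mt2. Gclc, Mt3, Mt4, the marker genes and the genes most alike without control replicate 2 were named after their values were seen. Same-numbered libraries deviated from their group means with correlations of -0.285, 0.180 and 0.253. Control replicate 2, far from its group, shapes the deviations of all 3 controls, so these correlations could not show whether libraries were paired. Replicate numbers were not taken to pair them. Alternatives were other filters, pseudocounts, scalings, voom, a fold threshold, a replicate block and leaving out libraries.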

Additional observations from a re-analysis of the deposited data

How the results depend on the processing

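Depth limits Mt2 most, with 2 to 11 reads in the controls, and groups of 3 and 2 libraries limit every p-value. With all 6 libraries, 11 genes were called. That count became 0 without a filter, 1 with at least 10 reads in every library, 1 with a pseudocount of 0.01, 6 after scaling to total reads (which shifted the median of all genes by 0.11), 0 with voom and 0 with the replicate block. Leaving out 1 library gave 0 to 118 calls, the highest without control replicate 2. None of the 10 zinc genes was called in these fits except Mt1 without control replicate 2, so that leaving out 1 library gave 0 to 1. With the replicate block Mt1 kept a difference of 1.70 (limma, Benjamini-Hochberg adjusted p = 0.916) and Mt2 of 2.39 (0.355). Without control replicate 2 the direction reversed for Slc30a4 (-0.17), Slc39a1 (-0.079) and Slc39a10 (-0.23). Leaving out 1 library gave -0.17 to 1.30 for Slc30a4, -0.079 to 0.15 for Slc39a1 and -0.23 to 0.75 for Slc39a10.

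Without control replicate 2, 118 genes were called, and 54 without a filter. The zinc genes called went from 1 to 2 (Mt1 and Mt2) with a pseudocount of 0.1, with one of 0.01, and after scaling to total reads. The number stayed at 1 with the other filters, quantile normalization, voom and the fold threshold. Alternatives chosen after seeing the data left out a further library: they gave 0 to 5602 calls and 0 to 6 zinc genes, the highest without PM2.5 replicate 3 and 0 for each of the others. Where 1 control was left, it was assumed to vary like the PM2.5 group. The cause of these changes was not tested.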
